A study of Mus musculus with 15 samples.

Results

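Collagen genes were taken as the probe sets whose single gene symbol in the platform annotation has the form Col, a number, a and a number, with 1 probe set per gene. That gave 44 of the 19938 genes represented on the array, and 37 of them passed the filter on dim probe sets and were tested. The 11 fibrillar genes all passed, as did 4 of the 6 chains of collagen IV (the basement membrane collagen) and 22 of the 27 others. Col10a1, Col19a1, Col28a1, Col4a5, Col4a6, Col6a4 and Col9a1 lay below the filter. The RNA came from the gastrocnemius, a calf muscle, of male C57BL/6 mice aged 12 months, with 1 mouse per array. The 4 groups were wildtype mice on control diet (3 arrays), wildtype mice on calorie restriction (CR, 4 arrays), Sirt3 knockout mice on control diet (4 arrays) and Sirt3 knockout mice on CR (4 arrays). Sirt3 encodes a deacetylase of mitochondria. How the knockout allele was made, which cells it acts in, and how strong and long the restriction was, is not given in the sources used. Values are log2 RMA intensities. A log2 difference of 1 is a doubling of signal. Genes are called dim or bright by their signal, which is not read as RNA amounts compared between genes.

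Collagens are proteins built from chains that wind into a triple helix. Fibrillar collagens such as I, III and V assemble into the fibrils that carry tension in the sheaths around muscle fibres and in tendon, and in muscle they are made mainly by fibroblasts and tendon cells. Collagen IV forms the sheet-like network of the basement membrane around each fibre and capillary, and collagen VI forms beaded filaments that link this membrane to the fibrils. Some of the other collagens sit on fibril surfaces, span cell membranes or lie in basement membrane zones. In whole muscle, fewer cells of a type and less RNA per cell cannot be told apart.

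In RefSeq's promoter table (build GRCm38.p6), 35 of the 44 collagen genes had an entry, with 38 windows of 150 bases before an annotated start. Sequences are shown for chains that the comparisons below turn on: Col1a2 of collagen I (chr6:4505468-4505617, plus strand), Col3a1 as a fibrillar chain with a smaller difference (chr1:45311388-45311537, plus strand), Col6a1 of collagen VI (chr10:76726045-76726194, minus strand), and 30 bases beside the start of the collagen IV chain Col4a2 (chr8:11312761-11312790, plus strand). Capitals mark matches to CCAAT or TATAAA on the strand shown.
Col1a2: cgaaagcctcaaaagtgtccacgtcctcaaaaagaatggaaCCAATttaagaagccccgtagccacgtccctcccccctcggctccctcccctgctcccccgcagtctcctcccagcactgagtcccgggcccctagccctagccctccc
Col3a1: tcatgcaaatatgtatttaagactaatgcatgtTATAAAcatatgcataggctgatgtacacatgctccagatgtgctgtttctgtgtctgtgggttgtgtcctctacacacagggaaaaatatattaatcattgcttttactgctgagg
Col6a1: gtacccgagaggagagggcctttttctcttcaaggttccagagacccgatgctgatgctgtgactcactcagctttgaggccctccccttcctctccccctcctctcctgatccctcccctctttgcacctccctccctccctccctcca
Col4a2: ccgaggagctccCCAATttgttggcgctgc

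The CCAAT of the Col4a2 stretch begins 32 bases before the annotated Col4a2 start. Col4a1 and Col4a2 lie on opposite strands with annotated starts 21 bases apart (11312826 on the minus strand and 11312805 on the plus strand). Each annotated transcript thus crosses the start of the other before leading away from it. The stretch lies downstream of the Col4a1 start on the other strand. Over all 38 windows, searched on both strands, CCAAT, which reads ATTGG on the opposite strand, occurred in 8 windows (21.1%, against 24.5% of all 32851 promoters). The GC box GGGCGG, which reads CCGCCC on the opposite strand, occurred in 19 windows (50%, against 28.6%). TATAAA, which reads TTTATA on the opposite strand, occurred in 4 (10.5%, against 7.57%). None of these motifs contains another, and a match describes letters only. Several collagen genes are genomic neighbours: Col3a1 and Col5a2, Col4a1 and Col4a2, Col4a3 and Col4a4, Col6a1 and Col6a2, and Col6a4, Col6a5 and Col6a6 each lie next to each other in RefSeq's gene order.

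Over the 7 wildtype arrays the Sirt3 signal was 6.52 ± 0.11 (mean ± SD), and over the 8 knockout arrays 5.57 ± 0.49, without overlap (two-sided exact permutation p = 0.000622). In limma, averaged over the diets, Sirt3 differed by -0.96 (SE 0.18, limma adjusted p = 0.318). The knocked-out gene itself thus did not pass the threshold used below for collagens, which limits what their failure to pass it shows. Array medians lay between 5.40 and 5.48. The 8 muscle fibre markers averaged 12.5 to 12.7 per array, so every array carried skeletal muscle RNA. They do not show which muscle it was or how pure. Wildtype control was the lowest group for them (12.46 to 12.50, against 12.53 to 12.68 on all other arrays). Of these 8 markers, 5 were higher with CR in each genotype at an unadjusted p under 0.05 (9.72% of all genes in wildtype and 6.79% in knockout mice). At that p, 0 were lower in wildtype and 1 in knockout mice (3.4% and 5.17% of all genes). With the genotypes averaged, 3 were higher at a limma adjusted p under 0.05, which 1.07% of all genes passed in either direction. The 4 adipocyte markers had median CR differences of 0.51 and 0.64 in wildtype and knockout mice. At an unadjusted p under 0.05, 0 were higher and 1 lower in wildtype mice, and 1 was higher and 0 lower in knockout mice. Their array means overlapped in wildtype mice (6.43 to 6.95 on control diet, 6.14 to 7.75 on CR). The part of these differences in the collagen values was not tested. Some arrays carried transcripts of other tissues. Wildtype control replicate 3 and knockout control replicate 1 were high for male germ cell markers (list means 9.77 and 9.16, against 5.00 to 6.41 elsewhere). Wildtype control replicate 2 was high for pancreatic acinar markers (12.53, against 5.16 to 6.18), and wildtype CR replicate 4 for liver markers (9.04, against 5.59 to 8.04). Next highest for liver markers were knockout control replicate 2 (8.04) and wildtype control replicate 1 (7.97). Both are kept in the fits that leave out the 4 arrays named before them. The acinar means of wildtype control replicates 1 and 3 (5.96 and 6.18) also lay above the 5.16 to 5.44 of all arrays outside wildtype control. Leaving out the 4 arrays keeps only wildtype control replicate 1 in its group, which is then assumed to vary like the other groups, and which is itself not free of these transcripts. Values without the 4 are given beside many of the larger collagen differences and for Sparc and Mrc2. They are not given for the tenocyte markers and most other genes of the lists, whose values rest on these arrays too.

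No collagen gene passed an adjusted p under 0.05 in limma in any of the 7 comparisons. The differences below are therefore given as values, and "higher" and "lower" describe group means. The largest concerned collagen I, whose 2 chains were higher on the wildtype control arrays than in most of the other mice. Col6a1 and Col6a3 of collagen VI were also highest in wildtype control muscle, while Col4a1 and Col4a2 were lowest there.

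Col1a1 (probe set 10380419) and Col1a2 (probe set 10536220) encode the chains of collagen I, the main collagen of tendon and of the muscle's connective tissue. Col1a1 read 7.89, 8.53 and 8.40 on the wildtype control arrays, 7.36, 7.82, 7.83 and 7.52 on wildtype CR, 8.06, 7.81, 7.51 and 7.04 on knockout control, and 7.64, 7.45, 7.69 and 7.15 on knockout CR. All 3 wildtype control arrays lay above all 4 wildtype CR arrays, replicate 1 only just, and the knockout control arrays spread over more than the whole range of the CR groups. Col1a2 read 8.01, 8.36 and 8.30 on wildtype control, 7.40, 7.71, 7.75 and 7.47 on wildtype CR, 8.08, 7.79, 7.61 and 7.00 on knockout control, and 7.58, 7.35, 7.76 and 7.12 on knockout CR. It ordered the arrays almost as Col1a1 did, again with no overlap between wildtype control and wildtype CR and with knockout control replicate 1 inside the wildtype control range.

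With CR in wildtype mice Col1a1 differed by -0.64 (SE 0.22, limma adjusted p = 0.241) and Col1a2 by -0.64 (SE 0.21, limma adjusted p = 0.219). Without the 4 arrays that carried other tissues these differences were -0.22 and -0.39 (limma adjusted p = 0.986 and 0.853), with wildtype control replicate 1, the lowest of its group, as the lone control. Leaving out only the 2 germ cell arrays gave -0.58 and -0.60. In knockout mice CR went with differences of -0.12 (SE 0.21) and -0.17 (SE 0.19), within the spread of the knockout control arrays (SD 0.44 and 0.46). These 2 knockout values were 0.03 and -0.01 without knockout control replicate 1, and -0.31 and -0.37 without its replicate 4. The 2 chains varied together over the 15 arrays, with Pearson r = 0.98 and Spearman rho = 0.96 (permutation p adjusted over 10 pairs = 1e-04 for both). Their r was 0.97 without the 2 arrays farthest from the Col1a1 median and 0.96 within groups.

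**Figure D1:**
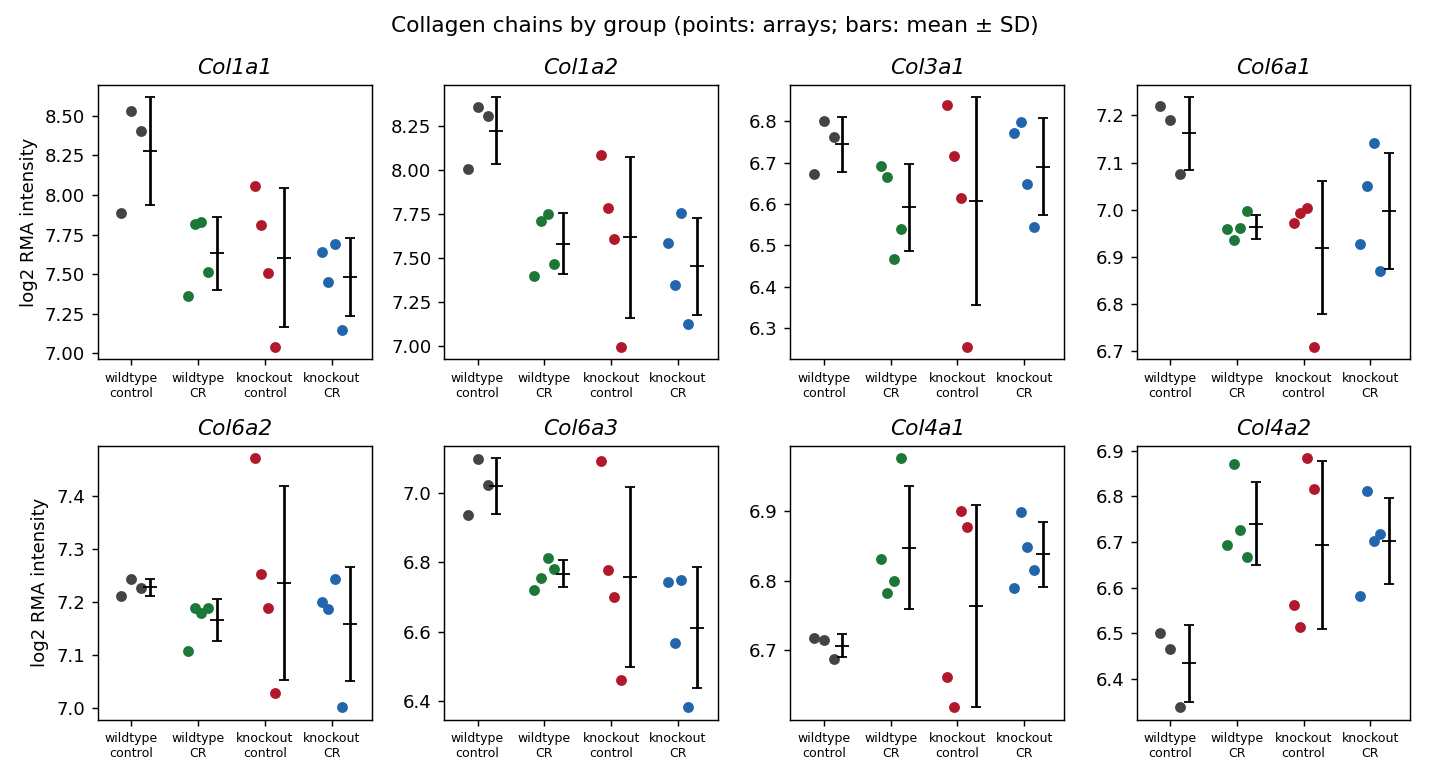
Log2 RMA intensity (vertical axis, a separate scale per panel) of 8 collagen chains on each of the 15 arrays, by genotype and diet; points are arrays and bars are the mean ± SD of the group. The 3 wildtype control arrays sit above the 4 wildtype CR arrays for Col1a1, Col1a2, Col6a1 and Col6a3 and below them for Col4a1 and Col4a2, while the knockout groups overlap each other in all 8 panels.

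The CR differences of the other fibrillar chains were smaller than those of collagen I in wildtype mice. Col3a1 (probe set 10346015), whose collagen III forms fine fibrils mixed with collagen I, read 6.67, 6.80 and 6.76 on wildtype control, 6.69, 6.67, 6.47 and 6.54 on wildtype CR, 6.84, 6.72, 6.62 and 6.25 on knockout control, and 6.77, 6.80, 6.65 and 6.54 on knockout CR. All groups overlapped, and knockout control replicate 4 was the lowest array, as it was for Col1a1 and Col1a2. Within each control diet group the arrays stood in the same order as for Col1a1. Its CR differences were -0.15 (SE 0.12) and 0.08 (SE 0.11) for wildtype and knockout mice, with limma adjusted p of 0.559 and 0.773. Without the 4 arrays that carried other tissues they were -0.06 and 0.16, and the knockout value was -0.03 without knockout control replicate 4.

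Collagen V is a minor fibrillar collagen that sits inside collagen I fibrils and limits their width. Col5a1 read 6.63, 6.43 and 6.42 on wildtype control, 6.43, 6.36, 6.53 and 6.49 on wildtype CR, 6.49, 6.48, 6.33 and 6.49 on knockout control, and 6.55, 6.65, 6.67 and 6.49 on knockout CR. Its groups overlapped, with the knockout CR mean the highest. Col5a2 read 5.75, 5.62 and 5.56 on wildtype control, 5.75, 5.65, 5.73 and 5.84 on wildtype CR, 5.84, 5.76, 5.75 and 5.67 on knockout control, and 5.75, 5.92, 5.83 and 5.72 on knockout CR. These groups overlapped too, and the CR differences were 0.10 (SE 0.07) and 0.05 (SE 0.07) in wildtype and knockout mice. Col5a3 read 6.15, 6.15 and 5.91 on wildtype control, 6.11, 6.20, 6.20 and 6.22 on wildtype CR, 6.20, 6.18, 6.10 and 6.23 on knockout control, and 6.23, 6.44, 6.36 and 6.39 on knockout CR. Only its knockout CR arrays stood apart from another group: they lay above all knockout control, all wildtype CR and all wildtype control arrays, the lowest by a narrow margin.

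Col2a1, the chain of cartilage collagen II, read 6.44, 6.29 and 6.37 on wildtype control, 6.48, 6.28, 6.51 and 6.44 on wildtype CR, 6.30, 6.40, 6.36 and 6.36 on knockout control, and 6.50, 6.47, 6.54 and 6.58 on knockout CR. The 4 knockout CR arrays lay above all knockout control and all wildtype control arrays and overlapped wildtype CR. Of 5 matched cartilage and bone markers, 4 (Acan, Matn1, Ibsp and Sp7) were below the filter. The remaining fibrillar genes, Col11a1, Col11a2, Col24a1 and Col27a1, differed with CR by 0.01 to 0.11 in wildtype and 0.09 to 0.19 in knockout mice.

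Among the Col4 chains, which build the basement membrane network, Col4a2 (probe set 10570068) gave the smallest p of all collagens for CR in wildtype mice. It read 6.50, 6.47 and 6.34 on wildtype control, 6.69, 6.87, 6.73 and 6.67 on wildtype CR, 6.56, 6.51, 6.88 and 6.82 on knockout control, and 6.58, 6.81, 6.70 and 6.72 on knockout CR. The wildtype control arrays were the 3 lowest of all 15, and knockout control split into 2 low and 2 high arrays. In wildtype mice CR went with a difference of 0.31 (SE 0.09, limma adjusted p = 0.201), which was 0.26 (limma adjusted p = 0.756) without the 4 arrays that carried other tissues. In knockout mice it was 0.01 (SE 0.09, limma adjusted p = 0.976).

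Col4a1 (probe set 10576973), which pairs with Col4a2 in the same triple helix, read 6.72, 6.71 and 6.69 on wildtype control, 6.83, 6.78, 6.80 and 6.98 on wildtype CR, 6.66, 6.62, 6.90 and 6.88 on knockout control, and 6.79, 6.90, 6.85 and 6.82 on knockout CR. All wildtype CR arrays lay above all wildtype control arrays, and the same 2 knockout control arrays were low as for Col4a2. Its CR differences were 0.14 (SE 0.08) and 0.07 (SE 0.07) for wildtype and knockout mice, with limma adjusted p of 0.434 and 0.695. The wildtype value was 0.09 without the 4 arrays that carried other tissues. Col4a1 and Col4a2 varied together with r = 0.71 and rho = 0.68 (permutation p adjusted over 10 pairs = 0.00612 and 0.0131), r being 0.82 without the 2 farthest arrays. Col4a3 and Col4a4, the chains of a collagen IV network best known from kidney, differed by 0.05 and -0.01 with CR in wildtype mice and by 0.11 and 0.09 in knockout mice, with SEs of 0.08 to 0.11.

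Collagen VI was represented by 5 tested chains. Col6a1 (probe set 10370210) read 7.22, 7.19 and 7.07 on wildtype control, 6.96, 6.94, 6.96 and 7.00 on wildtype CR, 6.97, 6.99, 7.00 and 6.71 on knockout control, and 6.93, 7.05, 7.14 and 6.87 on knockout CR. Wildtype control lay above all arrays of wildtype CR and of knockout control, and overlapped knockout CR. In wildtype mice CR went with a difference of -0.20 (SE 0.08, limma adjusted p = 0.326), which was -0.27 (limma adjusted p = 0.705) without the 4 arrays that carried other tissues. In knockout mice it was 0.08 (SE 0.08, limma adjusted p = 0.706).

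Col6a2 (probe set 10370180) read 7.21, 7.24 and 7.23 on wildtype control, 7.11, 7.19, 7.18 and 7.19 on wildtype CR, 7.47, 7.25, 7.19 and 7.03 on knockout control, and 7.20, 7.19, 7.24 and 7.00 on knockout CR. The wildtype groups did not overlap but lay close together, while the knockout arrays spread widely. Col6a3 (probe set 10356520), the longest of the classical chains, read 6.94, 7.10 and 7.02 on wildtype control, 6.72, 6.75, 6.81 and 6.78 on wildtype CR, 7.09, 6.78, 6.70 and 6.46 on knockout control, and 6.74, 6.57, 6.75 and 6.38 on knockout CR. Wildtype control lay above both CR groups, and knockout control replicate 1 lay with it. Col6a3 differed with CR by -0.25 (SE 0.12) and -0.15 (SE 0.11) in wildtype and knockout mice (limma adjusted p = 0.395 and 0.622), and Col6a2 by -0.06 (SE 0.09) and -0.08 (SE 0.08). In knockout mice the Col6a3 value was -0.04 and the Col6a2 value 0.00 without knockout control replicate 1, and -0.25 and -0.15 without its replicate 4.

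Of the other collagen VI chains, Col6a6 read 6.43, 6.38 and 6.26 on wildtype control, 6.47, 6.47, 6.57 and 6.52 on wildtype CR, 6.57, 6.34, 6.47 and 6.47 on knockout control, and 6.50, 6.57, 6.58 and 6.54 on knockout CR. Its wildtype CR arrays lay above its wildtype control arrays, opposite to Col6a1 and Col6a3, with a difference of 0.15 (SE 0.06, limma adjusted p = 0.333). It was 0.08 without the 4 arrays that carried other tissues. A second, dimmer probe set of Col6a6 gave 0.04. Col6a5 differed by 0.16 (SE 0.11) in wildtype and 0.20 (SE 0.10) in knockout mice, where its second probe set, at a mean of 4.04, gave 0.00.

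Col15a1 and Col18a1 encode collagens of basement membrane zones, and Col18a1 is the source of the fragment endostatin. Col15a1 read 6.11, 6.38 and 6.20 on wildtype control, 6.17, 6.18, 6.15 and 6.34 on wildtype CR, 6.43, 6.19, 6.07 and 6.14 on knockout control, and 6.15, 6.22, 6.29 and 6.09 on knockout CR. Its groups overlapped in every comparison, with CR differences of -0.02 (SE 0.09) in wildtype and -0.02 (SE 0.08) in knockout mice. Col18a1 read 6.30, 6.14 and 6.01 on wildtype control, 6.26, 6.26, 6.24 and 6.27 on wildtype CR, 6.09, 6.36, 6.26 and 6.29 on knockout control, and 6.19, 6.29, 6.44 and 6.32 on knockout CR. The wildtype CR arrays were nearly equal and lay inside the range of the wildtype control arrays.

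Collagen VIII is a short-chain collagen that forms hexagonal lattices, known from endothelium and the cornea. Its chain Col8a2, the dimmest tested collagen, read 5.25, 4.93 and 5.23 on wildtype control, 5.31, 5.37, 5.46 and 5.37 on wildtype CR, 5.34, 5.54, 5.38 and 5.27 on knockout control, and 5.54, 5.37, 5.63 and 5.58 on knockout CR. Wildtype control was the lowest group without overlap, and all 3 of its arrays lay under the filter value of 5.32. With CR in wildtype mice Col8a2 differed by 0.24 (SE 0.09, limma adjusted p = 0.287), and by 0.13 without the 4 arrays that carried other tissues or 0.14 without wildtype control replicate 2. Col8a1 differed the other way, by -0.27 (SE 0.12, limma adjusted p = 0.341). Across arrays the Col8 chains gave r = -0.31 and rho = -0.34 (permutation p adjusted over 10 pairs = 0.254 and 0.22).

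The fibril-associated collagens decorate fibrils. Col12a1, found in tendon and muscle sheaths, had the widest range of these, with values differing by 1.19 between its lowest and highest arrays, and CR differences of -0.31 (SE 0.18) in wildtype and -0.23 (SE 0.16) in knockout mice. They were -0.16 without wildtype control replicate 2 and -0.12 without knockout CR replicate 4. Col14a1 differed by -0.07 and 0.14, with SEs of 0.13 and 0.12. Col9a3 differed by 0.13 (SE 0.10) in wildtype and by 0.28 (SE 0.09, limma adjusted p = 0.259) in knockout mice, the largest knockout CR value of any collagen. The 4 transmembrane collagens (Col13a1, Col17a1, Col23a1 and Col25a1) differed by 0.09 to 0.17 in wildtype and 0.10 to 0.21 in knockout mice.

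The size of these small increases among dim collagens moved with single arrays, more in wildtype than in knockout mice. Wildtype control replicate 3 was the lowest array for 16 of the 37 collagens (and for 26% of all 12056 genes tested). Knockout CR replicate 3 was the highest for 17 of the 37 (and for 8.41% of all genes). Without wildtype control replicate 3 the median CR difference of the collagens outside the fibrillar and Col4 classes went from 0.10 to 0.01 in wildtype mice, and without knockout CR replicate 3 from 0.10 to 0.06 in knockout mice. With any 1 array left out, this knockout median stayed at 0.06 to 0.11 and the fibrillar one at 0.09 to 0.16. Of the 37 collagens, 28 had a mean under the median gene tested, at 6.63.

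**Figure D2:**
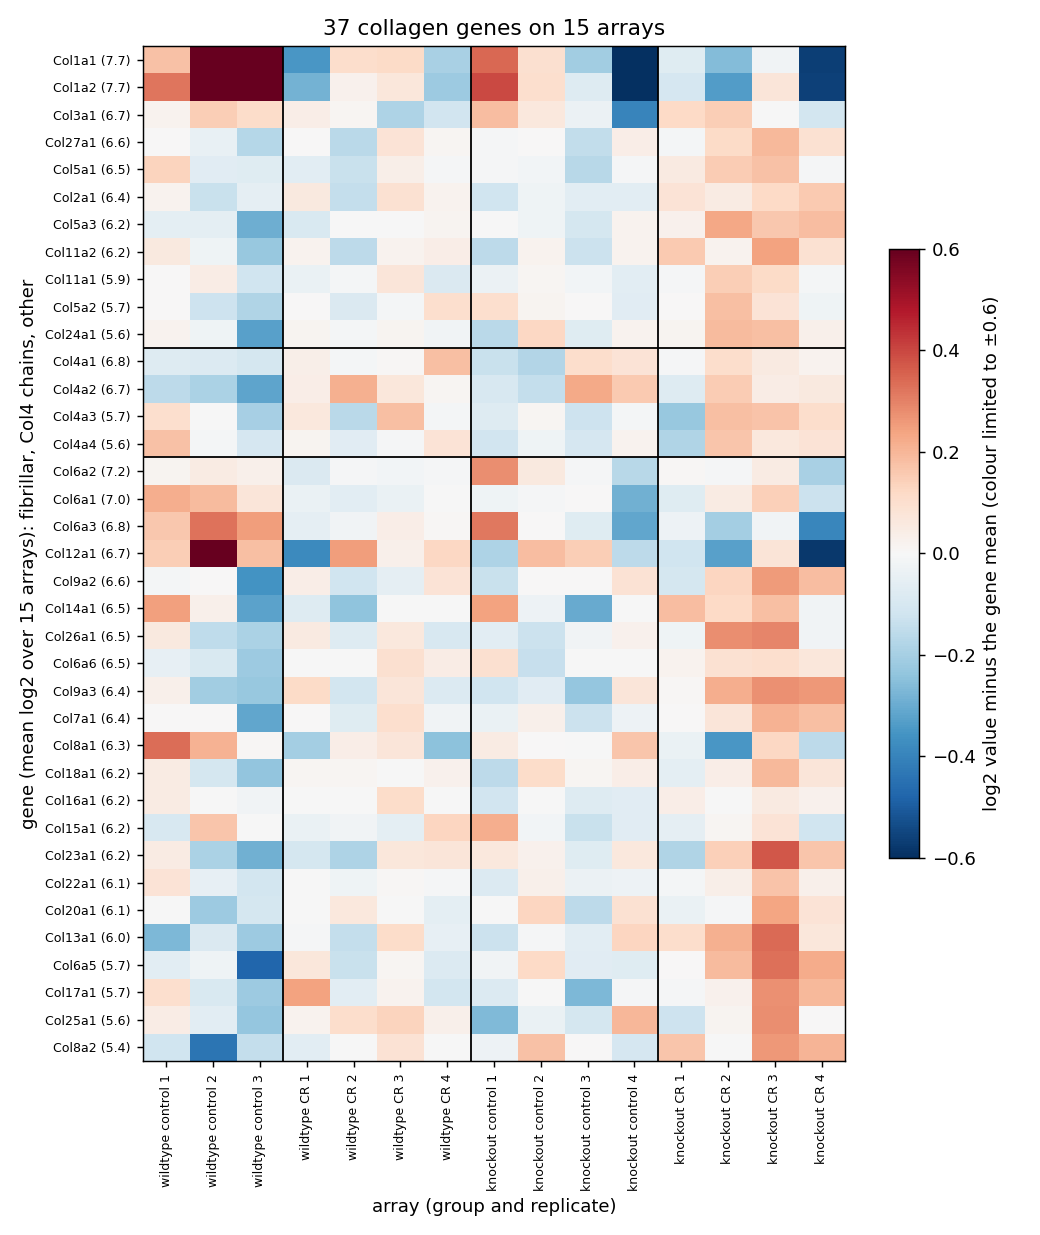
Log2 value of each of the 37 tested collagen genes minus the gene's mean over 15 arrays, with genes as rows (fibrillar, Col4 chains, others, each sorted by mean level, given in brackets) and arrays as columns by group and replicate; the colour scale stops at 0.6 in each direction. Col1a1 and Col1a2 stand out on wildtype control replicates 2 and 3, and the column of knockout CR replicate 3 is high for many of the dimmer genes.

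Counted over the 37 tested collagens, CR in wildtype mice gave 0 genes at adjusted p under 0.05 (0.124% of all genes tested passed it). At an unadjusted p under 0.05, 3 collagens were higher, against 9.72% of all genes, and 4 were lower, against 3.4%. The 3 were Col4a2, Col8a2 and Col6a6, and the 4 were Col1a1, Col1a2, Col6a1 and Col8a1. By class, 2 fibrillar chains were lower, 1 Col4 chain was higher, and among the others 2 were higher and 2 lower. The 7 became 4 without wildtype control replicate 2 or without wildtype CR replicate 3, and 1 without the 4 arrays that carried other tissues. Median differences were 0.05 for the fibrillar, 0.10 for the Col4 and 0.10 for the other collagens, beside 0.04 for all genes. The fibrillar median was -0.03 and the Col4 median 0.05 without wildtype control replicate 3.

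CR in knockout mice gave 0 collagens at adjusted p under 0.05 (0.0664% of all genes). The unadjusted p was under 0.05 for 5 that were higher (6.79% of all genes) and 0 that were lower (5.17%). The 5 were Col9a3, Col2a1 (0.17, SE 0.06), Col5a3 (0.18, SE 0.07), Col13a1 (0.20, SE 0.08) and Col11a2 (0.19, SE 0.08), of which 3 are fibrillar. The higher collagens numbered 13 without knockout CR replicate 1, 9 without replicate 2 of knockout control, and 8 without wildtype control replicate 3, with 0 lower each time. Without knockout control replicate 4, 6 were higher and 2 lower. Leaving out knockout control replicate 1 gave 3 higher, and leaving out its replicate 3 gave 2. The fibrillar median was 0.12, the Col4 median 0.08 and that of the others 0.10, beside 0.01 for all genes. With 1 array left out the Col4 median fell to 0.05 (knockout CR replicate 2) and that of the others to 0.06 (knockout CR replicate 3).

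**Figure D3:**
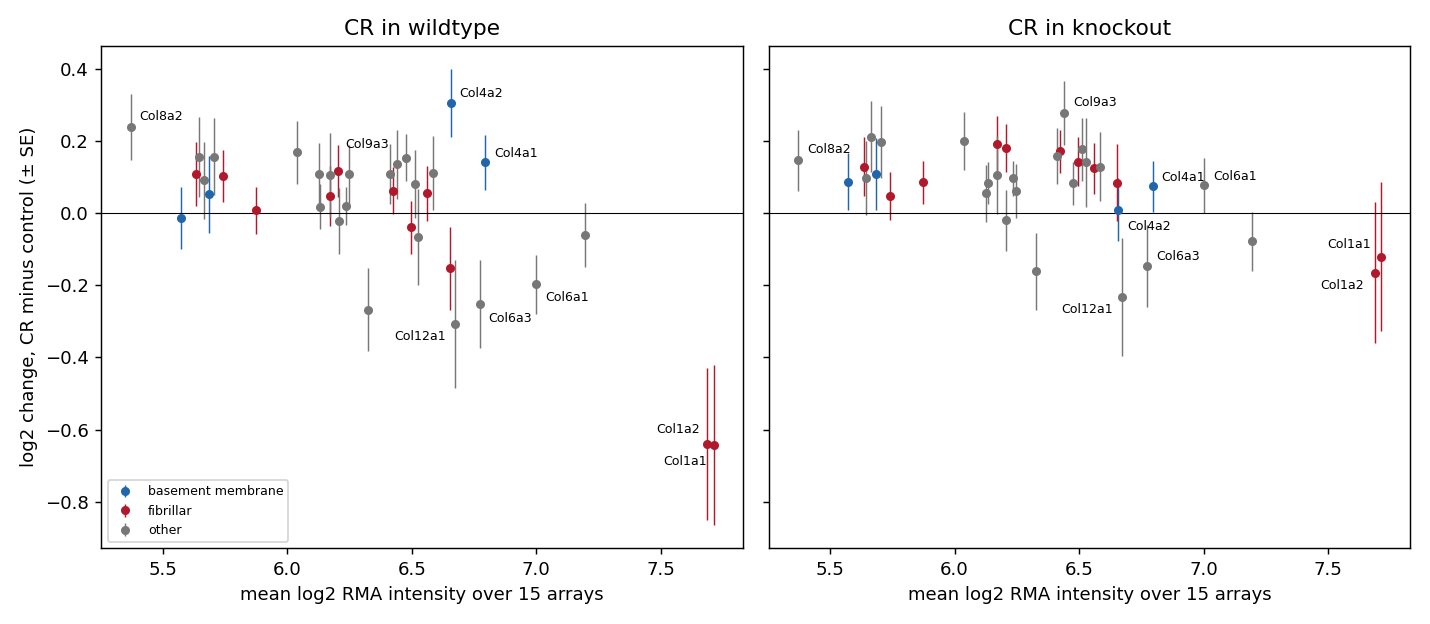
Log2 difference with CR (CR minus control, ± moderated SE) of the 37 tested collagens against their mean log2 RMA intensity over 15 arrays, in wildtype (left) and knockout mice (right), coloured by class. Col1a1 and Col1a2, the brightest, lie at -0.64 in wildtype and between -0.17 and -0.12 in knockout mice, and most dimmer members lie between 0 and 0.2 in both.

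With the diets compared over both genotypes, 0 collagens passed an adjusted p under 0.05 (1.07% of all genes did). Before adjustment, p was under 0.05 for 14: 9 were higher (13.7% of all genes) and 5 lower (6.4%). The 5 lower were Col1a2 (-0.40, SE 0.14, limma adjusted p = 0.153), Col1a1 (-0.38, SE 0.15), Col12a1 (-0.27, SE 0.12), Col8a1 (-0.21, SE 0.08) and Col6a3 (-0.20, SE 0.08). The 9 higher differed by 0.12 to 0.21, led by Col9a3 (limma adjusted p = 0.121), Col8a2, Col13a1 and Col5a3. The 14 became 8 when the germ cell arrays were left out and 2 when all 4 arrays with other tissues were. They became 9 without wildtype control replicate 3 or wildtype CR replicate 1. With all 4 arrays left out Col1a1 was at -0.09, Col1a2 at -0.20, Col6a3 at -0.11 and Col9a3 at 0.13. Medians were 0.07, 0.09 and 0.09 for the fibrillar, Col4 and other collagens, beside 0.03 for all genes.

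Whether the CR response differed between genotypes was tested by the interaction, taken as the knockout response minus the wildtype response. No collagen passed an adjusted p under 0.05 (0% of all genes did). Before adjustment, p was under 0.05 for 2: 1 was above 0 (1.33% of all genes) and 1 below (4.39%). They were Col6a1, at 0.27 (SE 0.11, limma adjusted p = 0.828), and Col4a2, at -0.30 (SE 0.13, limma adjusted p = 0.844). For Col1a1 and Col1a2 the interaction was 0.52 (SE 0.30, limma adjusted p = 0.867) and 0.48 (SE 0.29, limma adjusted p = 0.883), so the responses of collagen I were not shown to differ. They were 0.34 and 0.27 without knockout control replicate 4, and the Col1a1 value was 0.25 without the 4 arrays that carried other tissues. Leaving out either knockout control replicate 4 or replicate 3 of knockout CR made the count of 2 a 0, and leaving out knockout control replicate 1 made it 4. It was 1 without wildtype control replicate 2, wildtype CR replicate 2, knockout control replicate 3, or knockout CR replicate 1 or 2. The interaction was above 0 for 10 of 11 fibrillar, 2 of 4 Col4 and 16 of 22 other collagens, and for 43.1% of all genes. Medians were 0.11, -0.01 and 0.05, beside -0.03 for all genes. With 1 array left out they ran from 0.07 (wildtype control replicate 1) to 0.14, from -0.05 to 0.05, and from -0.01 (knockout CR replicate 3) to 0.11 (wildtype control replicate 3).

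On the control diet the genotypes gave 0 collagens at adjusted p under 0.05 (0% of all genes). Before adjustment, p was under 0.05 for 6: 2 were higher in knockout mice (5.08% of all genes) and 4 lower (1.94%). The lower ones were Col1a1 (-0.67, SE 0.22, limma adjusted p = 0.599), Col1a2 (-0.60, SE 0.21, limma adjusted p = 0.612), Col6a3 (-0.26, SE 0.12, limma adjusted p = 0.708) and Col6a1 (-0.24, SE 0.08, limma adjusted p = 0.608). The higher ones were Col4a2 (0.26, SE 0.09, limma adjusted p = 0.638) and Col8a2 (0.25, SE 0.09, limma adjusted p = 0.651). This comparison shares the 3 wildtype control arrays with CR in wildtype mice, so the values of the 2 comparisons are not independent of each other. The 6 became 2 without the 4 arrays that carried other tissues, and Col1a1 was then at -0.44 and Col8a2 at 0.14. Col8a2 was also at 0.14 without wildtype control replicate 2. Leaving out knockout control replicate 4 put Col1a2 at -0.40 and Col6a3 at -0.16. The fibrillar, Col4 and other medians were 0.00, 0.02 and 0.04, beside 0.02 for all genes, and without wildtype control replicate 3 they were -0.05, -0.03 and -0.02.

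On CR the genotypes again gave 0 collagens at adjusted p under 0.05 (0.0166% of all genes). Before adjustment, p was under 0.05 for 4: 4 were higher in knockout mice (2.58% of all genes) and 0 lower (3.34%). They were Col6a5 (0.22, SE 0.10), Col13a1 (0.20, SE 0.08), Col9a3 (0.19, SE 0.09) and Col5a3 (0.17, SE 0.07), with limma adjusted p of 0.8 to 0.84. The count was 1 without replicate 2 of wildtype CR or replicate 3 of knockout CR, 2 without wildtype CR replicate 4 or knockout control replicate 1, and 7 without knockout CR replicate 1. Col1a1 and Col1a2 differed by -0.15 (SE 0.21) and -0.13 (SE 0.19). Without knockout CR replicate 4 they differed by -0.04 and -0.02. Medians were 0.10, 0.01 and 0.07, beside -0.01 for all genes. The Col4 median ran from -0.02 to 0.05 with 1 array left out, and that of the others was 0.03 without knockout CR replicate 3.

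Averaged over the diets, knockout against wildtype gave 0 collagens at adjusted p under 0.05 (0% of all genes). At an unadjusted p under 0.05, 4 were higher (4.33% of all genes) and 4 lower (2.85%). The lower ones were Col1a1 (-0.41, SE 0.15), Col1a2 (-0.37, SE 0.14), Col12a1 (-0.28, SE 0.12) and Col6a3 (-0.21, SE 0.08), and the higher ones Col6a5, Col8a2, Col13a1 and Col5a3 (0.14 to 0.20), with limma adjusted p of 0.586 to 0.653. The 8 became 4 without wildtype control replicate 2, 5 when the germ cell arrays were left out and 2 when all 4 arrays with other tissues were. Leaving out the 4 arrays put Col12a1 at -0.15 and Col6a5 at 0.13, and leaving out wildtype control replicate 3 alone put Col6a5 at 0.13 too. The class medians were 0.04, 0.02 and 0.07, beside 0.01 for all genes. Without wildtype control replicate 3 the Col4 median was -0.01 and that of the others 0.03, and without its replicate 1 the fibrillar median was 0.08.

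Fibrillar and basement membrane collagens were also set against each other within arrays, as the mean over the genes of a class after each gene was centred on its mean over 15 arrays. The fibrillar mean minus the Col4 mean was 0.14 ± 0.07 (SD, n = 3) in wildtype control, -0.07 ± 0.04 (SD, n = 4) in wildtype CR, -0.02 ± 0.19 (SD, n = 4) in knockout control and -0.01 ± 0.13 (SD, n = 4) in knockout CR muscle. Wildtype control lay apart from wildtype CR and overlapped both knockout groups. Its replicates 1, 2 and 3 were at 0.05, 0.18 and 0.18. Replicates 2 and 3 were among the arrays high for other tissues, and the part of those tissues in these values was not tested. From wildtype control to wildtype CR the fibrillar mean went from 0.06 to -0.03 and the Col4 mean from -0.08 to 0.04. The pair Col1a1 and Col1a2 averaged 0.55 ± 0.26 (SD, n = 3), -0.09 ± 0.20, -0.09 ± 0.45 and -0.23 ± 0.26 (SD, n = 4 each) in the same order. On wildtype control replicates 1, 2 and 3 this pair was at 0.25, 0.75 and 0.65. The other 9 fibrillar genes averaged -0.05 ± 0.09, -0.02 ± 0.04, -0.04 ± 0.04 and 0.09 ± 0.05, so without collagen I the highest group was knockout CR. Col4a1 and Col4a2 averaged -0.15 ± 0.05, 0.07 ± 0.04, 0.00 ± 0.16 and 0.04 ± 0.07.

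**Figure D4:**
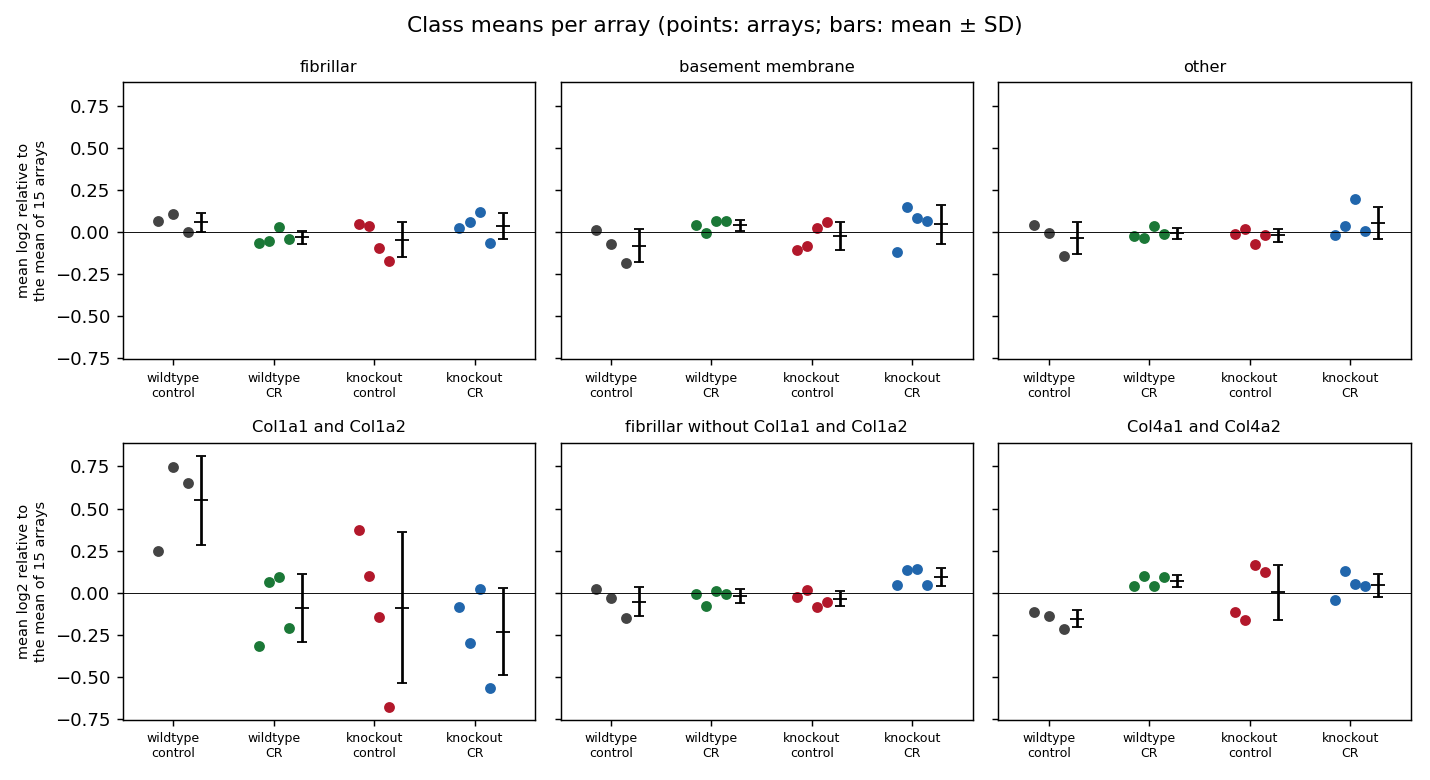
Mean log2 value per array of collagen classes and of chosen chains, relative to each gene's mean over 15 arrays (vertical axis, log2), by genotype and diet; points are arrays and bars are the mean ± SD of the group. The class panels stay within 0.2 of 0, while Col1a1 and Col1a2 average 0.55 in wildtype control muscle and span -0.68 to 0.37 among the knockout control arrays.

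Chains that share a triple helix or family often varied together over the 15 arrays. The median Pearson r over all 666 pairs of tested collagens was 0.38, and arrays share their RNA quality and admixture across genes. The permutation p compare each pair with no correlation. Whether these pairs vary together more than other collagens do was not tested. Col6a2 and Col6a3 gave r = 0.80 and rho = 0.72 (permutation p adjusted over 10 pairs = 0.00133 and 0.0102), with r = 0.67 without the 2 farthest arrays. Col4a3 and Col4a4 gave r = 0.81 and rho = 0.73 (adjusted permutation p = 0.00133 and 0.0102), and 0.72 without those arrays. Col9a2 and Col9a3 gave r = 0.73 and rho = 0.69 (adjusted permutation p = 0.00423 and 0.0131), and 0.60 without those arrays. Col6a1 and Col6a3 gave r = 0.65 and rho = 0.55 (adjusted permutation p = 0.0148 and 0.0427), and 0.53 without those arrays. Col5a1 and Col5a2 gave r = 0.58 and rho = 0.62 (adjusted permutation p = 0.0322 and 0.027). The relation depended in part on the 2 farthest arrays, since r was 0.34 without them, while r was 0.68 within groups over all arrays. For Col6a1 and Col6a2 (r = 0.48, rho = 0.58, adjusted permutation p = 0.0832 and 0.0387) and for Col11a1 and Col11a2 (r = 0.47, rho = 0.35, adjusted permutation p = 0.0832 and 0.22) r was 0.35 and 0.33 without the 2 farthest arrays.

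Genes that act on collagen were read from lists by role. None passed an adjusted p under 0.05 for CR in either genotype (0.124% of all genes did in wildtype and 0.0664% in knockout mice). With the genotypes averaged, 2 fell: 1 of 17 collagen-binding matrix proteins and 1 of 9 genes for breakdown and its inhibitors. The other role lists had none, and 1.07% of all genes passed in either direction. Sparc, a matrix protein that binds collagen, averaged 10.93 on control diet and 10.50 on CR in wildtype mice, 10.60 and 10.41 in knockout mice, and fell by 0.31 (SE 0.07, limma adjusted p = 0.0461). Mrc2, the receptor through which cells take up collagen for breakdown, averaged 6.41, 6.13, 6.27 and 6.07 in the same order and fell by 0.24 (SE 0.05, limma adjusted p = 0.0484). Over 25 alternative fits Sparc passed in 7 and Mrc2 in 4. The differences ran from -0.35 to -0.17 for Sparc and from -0.27 to -0.21 for Mrc2, and without the 4 arrays that carried other tissues they were -0.17 and -0.25 (limma adjusted p = 0.323 and 0.215).

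Collagen-binding matrix proteins had 17 tested members. At an unadjusted p under 0.05, 0 were higher and 8 lower with CR in wildtype mice, and 0 higher and 7 lower in knockout mice (over all genes, 9.72% were higher and 3.4% lower in wildtype mice, 6.79% and 5.17% in knockout mice), with medians of -0.25 and -0.22, beside 0.04 and 0.01 for all genes. Dcn (decorin, which coats fibrils) was at -0.26 (SE 0.07) in wildtype mice. Postn (periostin) was at -0.62 (SE 0.17) and Lum (lumican) at -0.51 (SE 0.17) in knockout mice, with limma adjusted p of 0.216 and 0.261.

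Of 16 genes for folding and modifying collagen, 1 was higher and 1 lower in wildtype mice and 0 and 3 in knockout mice at an unadjusted p under 0.05 (over all genes, 9.72% were higher and 3.4% lower in wildtype mice, 6.79% and 5.17% in knockout mice). Serpinh1, the collagen chaperone HSP47, was at -0.49 (SE 0.11, limma adjusted p = 0.167) with CR in knockout mice. Of 10 genes for propeptide cleavage and crosslinking, 0 were higher in either genotype, and 3 in wildtype and 2 in knockout mice were lower. Pcolce, which speeds removal of the procollagen end, was at -0.38 (SE 0.13) and -0.28 (SE 0.12), and the crosslinking enzyme Loxl1 at -0.20 (SE 0.09) and -0.18 (SE 0.08). These had limma adjusted p of 0.239 to 0.404.

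Of 9 genes for collagen breakdown and its inhibitors, 0 were higher and 2 lower in wildtype mice, and 1 and 1 in knockout mice, at an unadjusted p under 0.05 (over all genes, 9.72% were higher and 3.4% lower in wildtype mice, 6.79% and 5.17% in knockout mice). Mmp2, a gelatin-degrading protease, was at -0.29 (SE 0.11) in wildtype mice and the inhibitor Timp4 at 0.62 (SE 0.23) in knockout mice. Of 7 collagen receptors, 1 was lower in each genotype: Ddr2, a receptor tyrosine kinase for fibrillar collagen, at -0.28 (SE 0.08) in wildtype, and Itgb1, the shared beta chain of collagen-binding integrins, at -0.34 (SE 0.10) in knockout mice. Of 13 basement membrane partners, 0 were higher and 2 lower in wildtype mice, and 1 and 1 in knockout mice. Lamc1, a laminin chain, was at -0.26 (SE 0.08) and -0.21 (SE 0.07), and Nid1, which links laminin to collagen IV, at -0.20 (SE 0.08) in wildtype mice. So Lamc1 and Nid1, picked by their small p, lay below 0 where Col4a1 and Col4a2 lay above it. The median of the 13 partners was 0.07 in wildtype and 0.04 in knockout mice, above 0 like these 2 Col4 chains.

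Of 17 genes of TGF-beta signalling and fibroblast regulation, 0 were higher and 2 lower in wildtype mice, and 0 and 3 in knockout mice, at an unadjusted p under 0.05 (over all genes, 9.72% were higher and 3.4% lower in wildtype mice, 6.79% and 5.17% in knockout mice), with medians of 0.00 in both. Smad3, which carries the TGF-beta signal to collagen genes, was at -0.34 (SE 0.12), and Ltbp4, which stores latent TGF-beta in the matrix, at -0.26 (SE 0.10) and -0.29 (SE 0.09) in wildtype and knockout mice. These lists were chosen with earlier results of these data known, so their counts are a description.

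Markers of cells that make collagen also differed between groups. The mean of 8 tenocyte (tendon cell) markers was 7.40 to 7.72 on wildtype control, 6.50 to 7.24 on wildtype CR, 6.94 to 7.28 on knockout control and 6.39 to 7.16 on knockout CR arrays. Wildtype control was therefore the highest group without overlap for this list, as it was against wildtype CR for Col1a1 and Col1a2. All 8 passed the filter, 6 were lower and 0 higher with CR in wildtype mice at an unadjusted p under 0.05 (3.4% and 9.72% of all genes), and the median was -0.69. Tnmd (tenomodulin) was at -0.79 (SE 0.19, limma adjusted p = 0.133). In knockout mice 1 was lower, 0 were higher (5.17% and 6.79% of all genes) and the median was -0.33. Wildtype CR replicate 1 and knockout CR replicate 4, the lowest arrays of their groups for Col1a1, had the lowest tenocyte means. Knockout control replicate 4, the lowest array of all for Col1a1, had the lowest tenocyte mean of its group (6.94), above knockout CR replicate 2 (6.74). In wildtype control the orders differed: replicate 1 was lowest for Col1a1 (7.89), and replicate 3 had the lowest tenocyte mean (7.40). These tenocyte values include the arrays that carried other tissues, and the part of tendon tissue in the collagen I values was not tested.

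The 9 matched fibroblast markers averaged 7.53 to 7.77, 7.47 to 7.56, 7.49 to 7.62 and 7.35 to 7.57 per array in the same order of groups, and at an unadjusted p under 0.05 CR gave 0 higher and 3 lower in wildtype mice and 1 higher and 3 lower in knockout mice (over all genes, 9.72% were higher and 3.4% lower in wildtype mice, 6.79% and 5.17% in knockout mice). Cd34, a surface protein of fibroblasts and endothelium, fell by 0.24 (SE 0.05, limma adjusted p = 0.0461) with the genotypes averaged, and passed in 7 of 25 alternative fits. Endothelial markers, 8 of 8 measured, averaged 7.35 to 7.56, 7.50 to 7.63, 7.46 to 7.71 and 7.47 to 7.67, with 0 past an unadjusted p under 0.05 in either genotype. Smooth muscle and pericyte markers, 6 of 6 measured, ran from 7.53 to 8.24, and wildtype control replicate 3 was the lowest. Their median CR difference was 0.24 in wildtype and 0.14 in knockout mice. At an unadjusted p under 0.05, 1 was higher and 0 lower in wildtype mice, and 0 were higher or lower in knockout mice. The part of these cell types in the Col4a1 and Col4a2 values was not tested.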

How the data were processed

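RNA from 15 gastrocnemius muscles was hybridised to Affymetrix arrays, 1 mouse per array. The authors deposited log2 intensities made with RMA, which subtracts background, normalizes arrays and summarises probes (per the submitters' processing notes). Its version, any scan batch and the genome build are not given in the sources used. The table held 35556 probe sets with 0 missing values. Of 23410 probe sets in the platform annotation, 21789 had 1 symbol. Each of 19938 genes was represented by its brightest probe set (Col6a5 and Col6a6 had 2), and 12056 with a mean at or above the 40th percentile of listed probe sets, 5.32, were tested. Collagens matched RefSeq by Entrez identifier (44 of 44).

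All arrays were fitted in limma 3.58.1 (R 4.3.3; lmFit, eBayes) with 1 mean per group and 7 contrasts, two-sided, with Benjamini-Hochberg adjustment over all genes of a contrast and a threshold of 0.05. The fit was tested on simulated data. Errors of differences are moderated SEs. Array values are given for members whose groups did not overlap at an unadjusted p under 0.05 and for fixed chains of collagens I, III, IV, V, VI, XV and XVIII; other members are named as the 2 smallest p of a class, and related genes if past the threshold or as the 2 smallest p of a list. Other members, and markers beside them, were named after their values were seen. The members and lists were chosen with earlier results of these data known. Alternatives were no filter or a 60th percentile filter, averaging the probe sets of each gene, array-median centring, quantile normalization of the deposited values, a trended and robust prior, array weights, a fit with the replicate block, one of only the compared groups, and leaving out each array; the fits without the 2 germ cell arrays or the 4 arrays whose germ cell, acinar or liver markers exceeded the median array by 2 log2 units were chosen after seeing the data. Python 3.11.15 and matplotlib 3.10.9 drew the figures. With 3 or 4 arrays per group, their number limits the precision.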

Additional observations from a re-analysis of the deposited data

Results flagged for a closer look

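In 48 groups of 4 arrays (16 collagens with array values in each of 3 groups), 3 single arrays stood far from the others of their group, and chance flags about 1 in 20 groups. Col5a1 was 6.33 on knockout control replicate 3, against 6.48 to 6.49 on the other 3. Col6a1 was 6.71 on knockout control replicate 4, against 6.97 to 7.00. Col6a2 was 7.11 on wildtype CR replicate 1, against 7.18 to 7.19.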

How the results depend on the processing

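No collagen passed an adjusted p under 0.05 in any alternative fit. Of 1086 alternative values of the 43 collagen and comparison pairs named, 1081 kept their direction and 5 reversed, all 5 from differences near 0: Col4a4 for genotype on control diet (0.001 without wildtype control replicate 1; range over single arrays left out -0.136 to 0.001), and for genotype on CR Col4a2 (0.006 without wildtype CR replicate 2, 0.003 without knockout CR replicate 1; range -0.073 to 0.006) and Col4a3 (-0.021 without wildtype CR replicate 2, -0.002 without knockout CR replicate 2; range -0.021 to 0.134). Cd34, Mrc2 and Sparc lost the threshold in most fits, kept their direction in all 25, and their highest adjusted p were 0.205, 0.215 and 0.323.

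Counts at an unadjusted p under 0.05 moved more. With the 60th percentile filter they were 3 for CR in knockout, 2 for genotype on CR and 5 for genotype averaged. Centring on the array median gave 3 for CR in knockout and 2 for genotype on CR. The fit of only the groups compared gave 8 for CR in knockout and 3 for genotype on control diet. With the 2 germ cell arrays left out they were 8 for CR averaged and 5 for genotype averaged. Without the 4 arrays of other tissues they were 1 for CR in wildtype, 2 for CR averaged, 2 for genotype on control diet and 2 for genotype averaged. Leaving out 1 array gave 4 to 8 for CR in wildtype, 2 to 13 for CR in knockout, 9 to 18 for CR averaged, 0 to 4 for the interaction, 4 to 7 for genotype on control diet, 1 to 7 for genotype on CR and 4 to 11 for genotype averaged.

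Median differences of CR in wildtype were -0.039 (fibrillar), 0.223 (Col4) and -0.002 (other) with the 60th percentile filter, -0.033 (fibrillar) and 0.008 (other) without the germ cell arrays, and -0.035, 0.006 and -0.034 without the 4 arrays. Leaving out 1 array gave -0.033 to 0.093 for fibrillar and 0.008 to 0.158 for other collagens. The 60th percentile filter gave Col4 medians of -0.182 for the interaction and 0.158 for genotype on control diet, from 2 genes. Without the 4 arrays the others had medians of 0.13 for the interaction and -0.049 for genotype on control diet, where leaving out 1 array gave -0.022 to 0.118. The causes were not tested, except that filters test fewer genes.

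The labels number replicates 1 to 4 without saying what the numbers share. Deviations of same-numbered arrays had a median correlation of 0.01 over 21 pairs, with a range of -0.64 to 0.50 and 7 of them over 0.1. The median was -0.01 for 63 other pairs, so the medians showed no pairing by number. The deviations include those of the arrays that carried other tissues, so they cannot decide whether same-numbered arrays were paired. With the replicate block the counts were 4 for CR in wildtype, 0 for the interaction and 2 for genotype on CR, and the block changed no other count by over 1.5 times. Sirt3 differed by -0.92 with it.

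Limits: 3 or 4 arrays per group, transcripts of other tissues, dim signals of most collagens, and unknown scan batches. These transcripts lay on the wildtype control arrays and on some arrays of wildtype CR and knockout control. The fit of only the groups compared was not run for averages and the interaction, which use all groups.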
